A study of Mus musculus with 4 samples.

Results

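The interferon-stimulated effector genes described here are 38 genes whose products carry out the response to interferon: RNA sensors, antiviral enzymes and GTPases, *Isg15* and its partners, ADP-ribosylation factors, and the machinery of peptide presentation. They were listed by name, with earlier results of these data known, and the rule uses none of their values. On the arrays 37 of the 38 had signal above the filter, out of 18762 genes tested. *Herc6*, a ubiquitin ligase gene that attaches ISG15 to proteins in mice, had no probe set under its own symbol. Probe sets that the platform names *Herc5*, a synonym of *Herc6* alone in the RefSeq gene table, are given apart below.

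RNA was taken from bone marrow cells of iSox7 transgenic mice, in which doxycycline switches on SOX7 together with GFP. All cells had been passaged repeatedly on irradiated OP9 stroma, a mouse bone marrow stromal line, with Kit ligand, interleukin-7 and FLT3 in the medium. They were then sorted by the level of SOX7::GFP and of cKIT into a high and a low fraction, with 2 arrays per group. The labels also list a cell line, iSOX7, derived from Ainv18, and give neither the age nor the strain of the mice. The series text names duplicate cultures either given doxycycline or not, but the study describes both fractions as cells that express SOX7::GFP, at a low or a high level. The study calls the duplicates biological, but no source used here says from which mouse or which culture each array came. The p-values therefore cover no more than the spread among these 4 arrays. *Sox7* itself had a log2 value of 9.52 and 9.63 on the SOX7::GFP high arrays and of 9.07 and 8.90 on the SOX7::GFP low arrays, a log2 fold change of 0.59 that was not called (limma adjusted p = 0.0859). Its 4 brightest probe sets were at 11.14 to 11.63 on the SOX7::GFP high arrays and at 10.48 to 11.28 on the SOX7::GFP low arrays, so that *Sox7* signal was high in both fractions. *Kit* was 1.85-fold higher (limma adjusted p = 0.0464), under the 2-fold minimum for a call. The 18762 gene values had a Pearson correlation of 0.961 between the SOX7::GFP high arrays, 0.958 between the SOX7::GFP low arrays and 0.859 to 0.865 between arrays of different groups.

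Interferons are secreted when a cell senses foreign nucleic acid, and bind receptors that activate JAK kinases and STAT transcription factors. A complex that holds STAT2 and IRF9 then binds the interferon-stimulated response element (ISRE) of many promoters, while STAT dimers bind another element, GAS. The products block viral replication and translation, edit or degrade RNA, and raise antigen presentation. In bone marrow many of these genes are also expressed at a baseline without infection, and stem cells, lymphocytes and myeloid cells differ in that baseline.

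The DNA element that many of these genes share is shown first. The rule did not use sequence, but it lists genes known to respond to interferon, and many such promoters hold the element. Its frequency below therefore describes the list and is not a result of these arrays. The RefSeq promoter table (build GRCm38.p6, 250 bases before to 50 bases after a start) held windows for 30 of the 38 genes. The core of the ISRE was searched as GAAA, any 2 bases and GAAA again, which reads on the other strand as TTTC, any 2 bases and TTTC, with overlapping matches counted. It was found in the windows of 15 of the 30 genes, against 3.99% of all 27025 genes with a window. The GAS letters TTCNNNGAA, which read alike on both strands, were found in 8 of the 30, against 9.55% of all genes. Of the 23 ISRE core matches 20 lay before the start, from position -222 to -14. The stretches below give the matches, in capitals, of the called gene *Stat2* and of 3 genes with log2 fold changes below -1. They also give those of 3 genes with log2 fold changes of -0.50 to -0.17. Each has 20 bases on either side and is read 5′ to 3′ along the gene. In *Gbp3* and *Isg15* neighbouring matches overlap.
Stat2 (chr10:128270256-128270305, plus strand): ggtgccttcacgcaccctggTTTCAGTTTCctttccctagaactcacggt
Gbp2 (chr3:142620584-142620633, plus strand): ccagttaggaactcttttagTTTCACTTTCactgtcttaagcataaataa
Gbp3 (chr3:142559979-142560034, plus strand): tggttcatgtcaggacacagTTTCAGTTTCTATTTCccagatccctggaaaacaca
Ifit3 (chr19:34583353-34583436, plus strand): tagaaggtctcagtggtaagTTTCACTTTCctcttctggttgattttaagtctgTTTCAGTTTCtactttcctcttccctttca
Isg15 (chr4:156200855-156200916, minus strand): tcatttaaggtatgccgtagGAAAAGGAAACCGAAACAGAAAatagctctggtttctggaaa
Ifit1 (chr19:34640765-34640833, plus strand): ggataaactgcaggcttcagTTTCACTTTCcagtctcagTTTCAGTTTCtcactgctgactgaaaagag
Rsad2 (chr12:26456543-26456592, minus strand): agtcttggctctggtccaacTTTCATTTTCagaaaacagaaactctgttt

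Over the 15 genes with the ISRE core the median log2 fold change was -0.56, with a range of -2.06 to -0.11. Over the 14 measured genes with a window but without these letters it was -0.65, with a range of -1.79 to 0.32. The called genes *Ifi44* and *Dtx3l* were among those without a match, and the called gene *Parp14* had no window to search. *Isg15*, whose 3 overlapping matches were the most in any of these windows, was among the genes not called. A match is a run of letters and not a measured binding site.

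Of the 37 measured genes 4 were lower in SOX7::GFP high than in SOX7::GFP low cells, and 0 were higher. Calls needed an adjusted p from limma under 0.05, by Benjamini-Hochberg over all genes, and at least a 2-fold difference. Over all genes tested 3.24% were called lower and 3.61% higher. The 4 genes were *Ifi44*, *Parp14*, *Stat2* and *Dtx3l*. At an unadjusted p under 0.05 limma placed 16 of the 37 genes lower, against 9.8% of all genes, and 0 higher, against 14.1%. The methods' t-test called 0 of all 18762 genes after adjustment, so that its 0 of 37 says nothing about these genes. It placed 8 lower and 0 higher at an unadjusted p under 0.05, against 7.28% and 11.4% of all genes. With 1 array left out limma called 3 genes lower without SOX7::GFP high replicate 2 (*Ifi44*, *Gbp2* and *Ifit3*), against 1.09% of all genes, and 0 without any one of the other 3 arrays, against 0.885% to 1.67%. With the median of probe sets in place of their mean *Parp14* alone passed, against 3% of all genes (limma adjusted p = 0.0508 for *Ifi44*, 0.0673 for *Stat2* and 0.103 for *Dtx3l*), and with the replicate number as a block *Dtx3l* did not (limma adjusted p = 0.0531).

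Most of the measured genes lay on the lower side without passing the test. The log2 fold change was below 0 in 35 of the 37, against 44.5% of all genes, and -1 or less in 9, against 4.29%. Their median was -0.54, with quartiles of -0.89 and -0.20, against 0.05 over all genes. Both SOX7::GFP high arrays lay below both SOX7::GFP low arrays for 26 of the 37 genes, against 22.2% of all genes, and above both for 0, against 32.2%. The 37 genes rested on 483 probe sets, between 3 and 34 per gene. A further 29 probe sets of these genes were under the filter of 5.04 on the second-highest array. The nearest kept probe set had 5.07 and the nearest dropped one 4.88. In sorted bulk samples fewer cells of a type and less RNA per cell cannot be told apart.

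**Figure D1:**
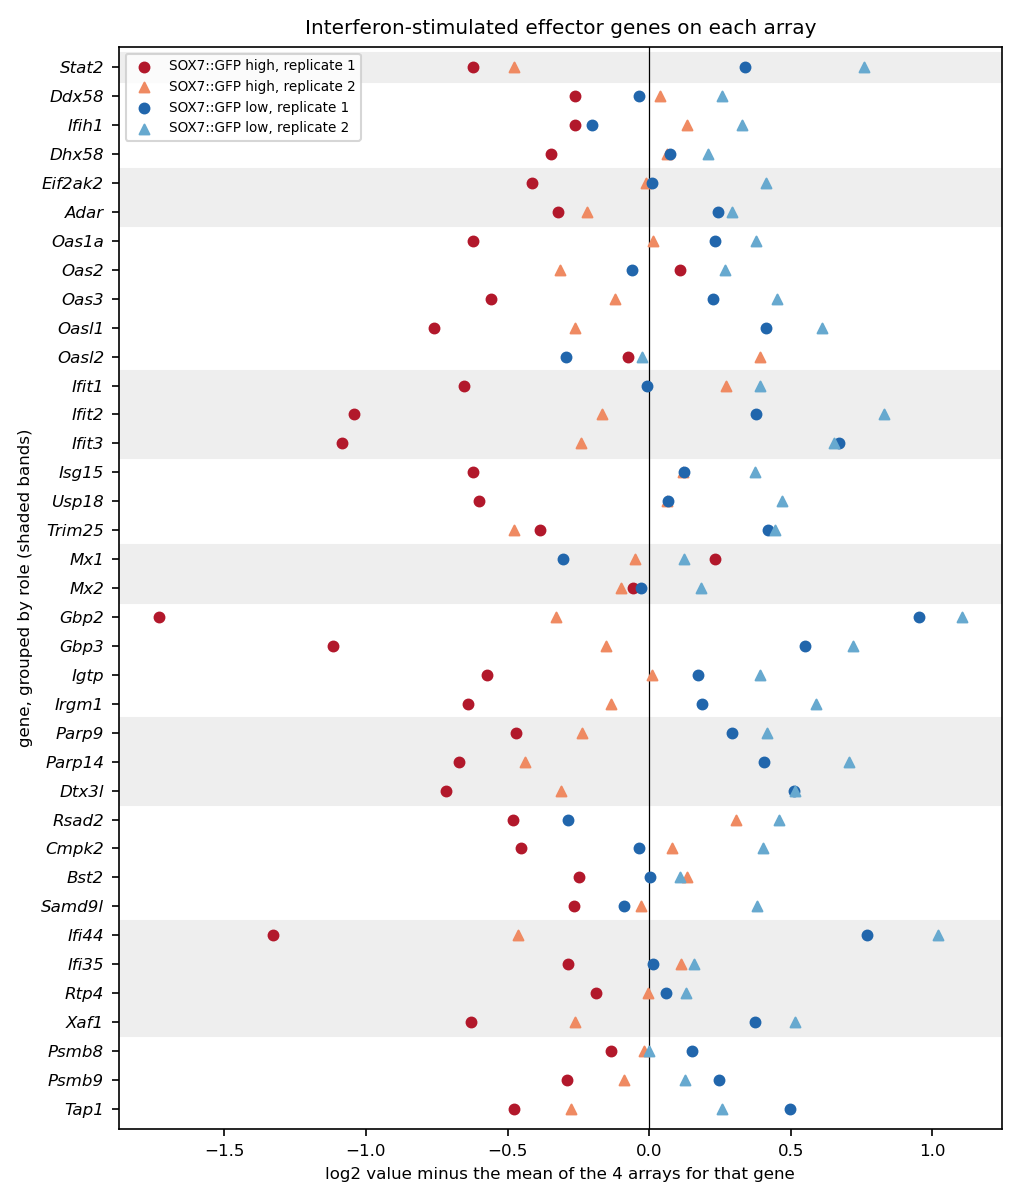
Log2 value of each of the 37 measured genes on each of the 4 arrays, minus the mean of the 4 arrays for that gene (x axis), with genes grouped by role (y axis, shaded bands). Red and orange points are SOX7::GFP high replicates 1 and 2 and blue points SOX7::GFP low replicates 1 and 2. For 26 genes both SOX7::GFP high points lie left of both SOX7::GFP low points, and SOX7::GFP high replicate 1 is the lowest point for 32 genes.

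*Stat2* encodes a transcription factor of the complex that binds the ISRE. Its log2 value was 7.45 and 7.59 on the SOX7::GFP high arrays and 8.41 and 8.83 on the SOX7::GFP low arrays, so that the groups did not overlap. It was 2.14-fold lower in SOX7::GFP high cells (log2 fold change -1.10, standard error or SE 0.20, limma adjusted p = 0.0386). Of its 27 kept probe sets 26 had both SOX7::GFP high arrays below both SOX7::GFP low arrays. Its log2 fold change was between -1.31 and -0.89 in the fits of 3 arrays, and the adjusted p did not pass, the lowest being 0.0540 without SOX7::GFP low replicate 1.

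None of the genes for factors that sense or bind double-stranded RNA was called, with log2 fold changes of -0.54 to -0.12. *Ddx58*, *Ifih1* and *Dhx58* encode the cytoplasmic sensors RIG-I, MDA5 and LGP2, and had log2 fold changes of -0.22, -0.12 and -0.28, none called. *Dhx58* was at 8.33 and 8.74 on the SOX7::GFP high arrays and at 8.75 and 8.89 on the SOX7::GFP low arrays, so that the nearest arrays of the groups were almost equal (limma adjusted p = 0.459). *Ifih1* turned positive without SOX7::GFP high replicate 1 (0.07), and also without SOX7::GFP low replicate 2 (0.14). *Adar* encodes an enzyme that edits adenosine in double-stranded RNA, and was at 7.70 and 7.80 against 8.27 and 8.32. Its log2 fold change of -0.54 (SE 0.14) was larger than the gap between the arrays of either group, but was not called (limma adjusted p = 0.0893). *Eif2ak2*, which encodes the kinase PKR that stops translation, had a log2 fold change of -0.42, with arrays that did not overlap.

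In the oligoadenylate synthetase family none of the 5 measured genes was called, and log2 fold changes ran from -1.02 to 0.32. These enzymes make a short adenylate chain that activates RNase L, although OASL1 lacks that activity and in mice restrains the translation of IRF7. *Oasl1* was at 8.47 and 8.97 on the SOX7::GFP high arrays and at 9.64 and 9.84 on the SOX7::GFP low arrays, and all of its 10 probe sets lay lower on both SOX7::GFP high arrays. Its log2 fold change was -1.02 (SE 0.22) and just missed the threshold (limma adjusted p = 0.0600). *Oasl2*, its neighbour on chromosome 5, was at 9.29 and 9.76 against 9.08 and 9.34, with overlapping groups and a log2 fold change of 0.32 (limma adjusted p = 0.463). It was the highest of the 37 log2 fold changes and the single one above 0 with every array left out in turn. The log2 ratio of *Oasl1* to *Oasl2* within an array was -0.82 and -0.79 in SOX7::GFP high cells and 0.56 and 0.49 in SOX7::GFP low cells. Only its shift of -1.34 has a meaning, as probe sets of different genes differ in brightness, and this pair was picked after its values were seen, without a test. *Oas1a*, *Oas2* and *Oas3*, which lie together elsewhere on the same chromosome, had log2 fold changes of -0.61, -0.20 and -0.68. *Oas1a* has close paralogs and rested on 4 probe sets, with 15 others left out because the platform gives them several names.

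The IFIT genes encode proteins that bind viral RNA ends and block their translation. *Ifit3* was at 7.68 and 8.53 on the SOX7::GFP high arrays and at 9.44 and 9.42 on the SOX7::GFP low arrays. This 2.51-fold difference (log2 fold change -1.32, SE 0.30) was not called (limma adjusted p = 0.0701), with SOX7::GFP high replicate 1 well below SOX7::GFP high replicate 2. It rested on 3 probe sets, with 3 more shared with another gene name. *Ifit2* was at 7.91 and 8.79 against 9.33 and 9.79, a log2 fold change of -1.21 (limma adjusted p = 0.117). *Ifit1*, which lies in the same cluster on chromosome 19, was at 9.38 and 10.31 against 10.03 and 10.43, with overlapping groups and a log2 fold change of -0.38. Within an array the log2 ratio of *Ifit2* to *Ifit1* was -1.47 and -1.52 in SOX7::GFP high cells and -0.70 and -0.64 in SOX7::GFP low cells. Its shift of -0.83 exceeded the gap between the arrays of either group, and was likewise picked after its values were seen.

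*Isg15* encodes a small ubiquitin-like modifier, *Usp18* the protease that removes it, and *Trim25* a ubiquitin ligase that activates RIG-I. *Trim25* was at 8.45 and 8.35 on the SOX7::GFP high arrays and at 9.25 and 9.28 on the SOX7::GFP low arrays, and all of its 17 probe sets lay lower on both SOX7::GFP high arrays. It had the lowest adjusted p of the 37 genes (0.0287 from limma), but its difference of 1.82-fold was under the 2-fold minimum. Without that minimum 5 genes were lower, against 3.95% of all genes, and 0 higher, against 4.71%. *Isg15* was at 9.21 and 9.95 against 9.95 and 10.20, and *Usp18* at 9.41 and 10.07 against 10.08 and 10.48. For both, SOX7::GFP high replicate 2 and SOX7::GFP low replicate 1 were nearly equal, and the log2 fold changes of -0.50 and -0.54 were smaller than the gap between the SOX7::GFP high arrays. The *Herc5* probe sets taken as *Herc6* were at 7.95 and 8.36 against 8.67 and 8.94, a log2 fold change of -0.65 that was not called (limma adjusted p = 0.148).

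None of the 6 measured GTPase genes was called. *Mx1* and *Mx2* encode dynamin-like proteins that trap viral particles or their nucleoproteins, and had log2 fold changes of 0.18 and -0.16, neither called. *Mx1* was at 7.52 and 7.24 on the SOX7::GFP high arrays and at 6.98 and 7.41 on the SOX7::GFP low arrays, so that the groups overlapped, and its log2 fold change turned to -0.03 without SOX7::GFP low replicate 1. The guanylate-binding proteins and immunity-related GTPases instead attack vacuoles that hold pathogens. *Gbp2* had the lowest log2 fold change of the 37 genes, at 6.41 and 7.81 against 9.10 and 9.25. Its 4.17-fold difference (log2 fold change -2.06, SE 0.48) was not called (limma adjusted p = 0.0716), with a standard deviation of 0.99 between the SOX7::GFP high arrays against 0.11 between the SOX7::GFP low arrays. Without SOX7::GFP high replicate 2 it was called, at -2.76 (limma adjusted p = 0.0382), and without SOX7::GFP high replicate 1 it was at -1.36 (limma adjusted p = 0.0723). *Gbp3*, which lies near it on chromosome 3, was at 7.02 and 7.99 against 8.69 and 8.86, a log2 fold change of -1.27 (limma adjusted p = 0.103). *Igtp* and *Irgm1* had log2 fold changes of -0.56 and -0.77, with arrays that did not overlap. Members of the GTPase families resemble each other in sequence, and how far their probes are shared was not tested.

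**Figure D2:**
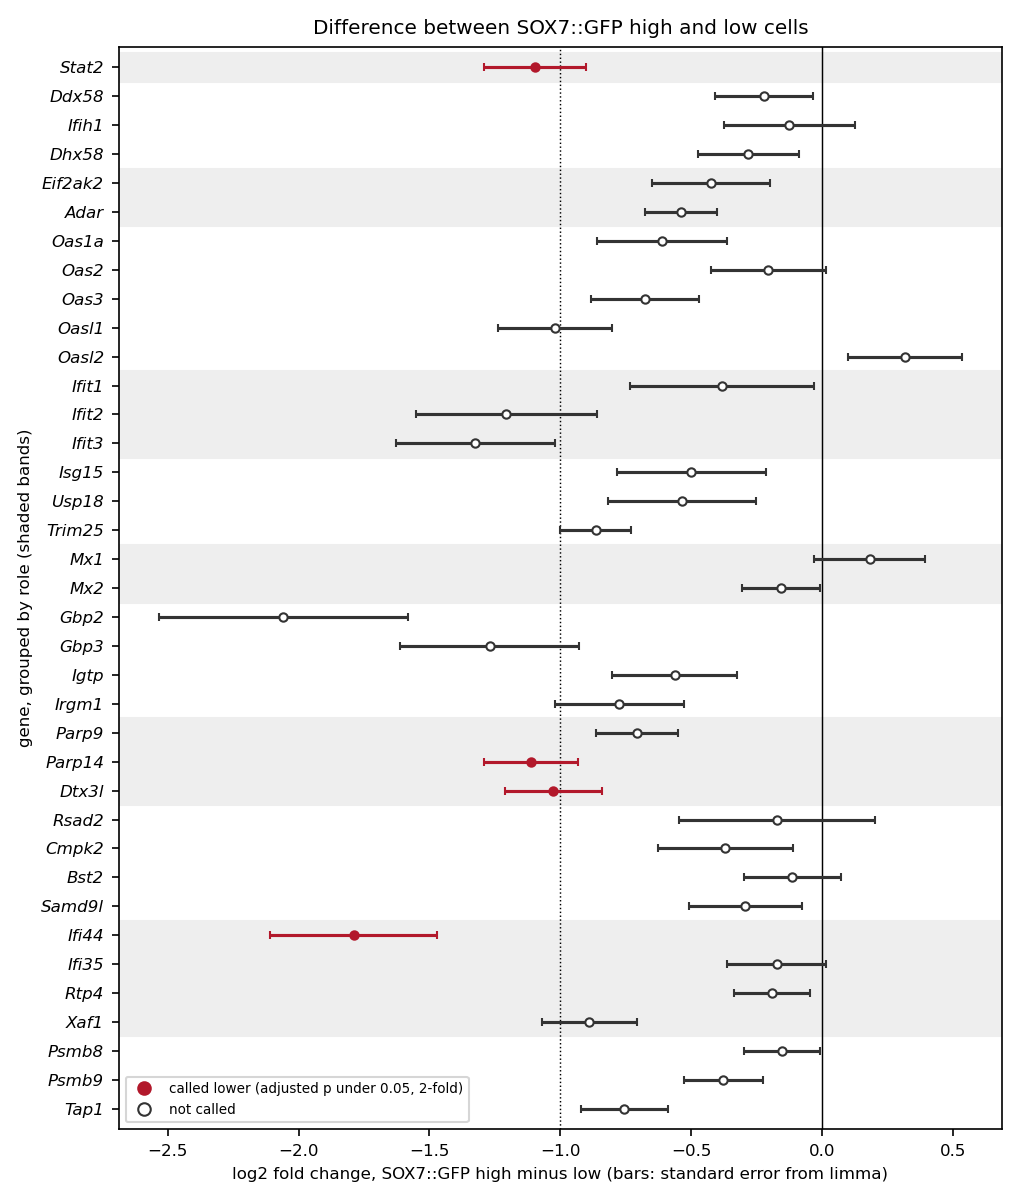
Log2 fold change of SOX7::GFP high over SOX7::GFP low cells (x axis) for each of the 37 measured genes (y axis, grouped by role), with bars of 1 standard error from limma. Filled red points are the 4 genes called lower, the dotted line marks a 2-fold difference, and the points of *Oasl2* and *Mx1* alone lie right of 0.

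PARP9 and DTX3L form a complex that joins ADP-ribosylation to ubiquitination, and PARP14 is a related ADP-ribosyl transferase. Their genes follow one another on chromosome 16 in the RefSeq gene order, and both *Parp14* and *Dtx3l* were called lower. *Parp14* was at 7.57 and 7.80 on the SOX7::GFP high arrays and at 8.65 and 8.95 on the SOX7::GFP low arrays, 2.16-fold lower (log2 fold change -1.11, SE 0.18, limma adjusted p = 0.0308). Of its 34 probe sets, the most of any of these genes, 33 lay lower on both SOX7::GFP high arrays. *Dtx3l* was at 9.12 and 9.52 against 10.35 on both SOX7::GFP low arrays, 2.04-fold lower (log2 fold change -1.03, SE 0.19, limma adjusted p = 0.0402). *Parp9* was at 8.30 and 8.53 against 9.06 and 9.18, a log2 fold change of -0.71 that was not called (limma adjusted p = 0.0654). For all 3 genes the gap between the nearest arrays of the groups was wider than the gap between the arrays of either group. In the fits of 3 arrays *Parp14* had log2 fold changes between -1.26 and -0.96 and *Dtx3l* between -1.23 and -0.82, and neither passed in any of these fits.

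Among the 4 remaining antiviral effectors differences were small, and none was called. *Rsad2* encodes viperin, which makes a chain-terminating nucleotide, and *Cmpk2*, its neighbour on chromosome 12, a nucleotide kinase. *Cmpk2* was at 8.18 and 8.71 on the SOX7::GFP high arrays and at 8.60 and 9.03 on the SOX7::GFP low arrays, a log2 fold change of -0.37 (limma adjusted p = 0.471). *Rsad2* was at 8.64 and 9.42 against 8.83 and 9.58, so that replicate 2 was the higher array in both groups by more than the log2 fold change of -0.17. *Bst2*, which encodes tetherin and marks plasmacytoid dendritic cells in mice, had a log2 fold change of -0.11, and *Samd9l*, a restriction factor gene, of -0.29. The groups overlapped for all 4 genes.

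*Ifi44*, an interferon-induced gene of less defined function, had the largest difference among the called genes. Its log2 value was 8.56 and 9.42 in SOX7::GFP high cells and 10.65 and 10.90 in SOX7::GFP low cells. It was 3.46-fold lower (log2 fold change -1.79, SE 0.32, limma adjusted p = 0.0390), and all of its 13 probe sets lay lower on both SOX7::GFP high arrays, with differences of -2.24 to -1.49. It stayed called without SOX7::GFP high replicate 2 (-2.22, limma adjusted p = 0.0481) and lost the call without any one of the other arrays, at -1.91 to -1.36. *Xaf1*, which encodes an inhibitor of the caspase inhibitor XIAP, was at 8.45 and 8.82 against 9.45 and 9.59, a log2 fold change of -0.89 (limma adjusted p = 0.0553). *Ifi35* and *Rtp4*, which encodes a chaperone of membrane receptors, had log2 fold changes of -0.17 and -0.19, and the groups overlapped for *Ifi35*.

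*Psmb8* and *Psmb9* encode catalytic subunits of the immunoproteasome, and *Tap1*, between them on chromosome 17, part of the transporter that carries peptides to MHC class I. *Tap1* was at 8.36 and 8.57 on the SOX7::GFP high arrays and at 9.34 and 9.10 on the SOX7::GFP low arrays. Its log2 fold change of -0.76 (SE 0.17) was not called (limma adjusted p = 0.0641), though 16 of its 18 probe sets lay lower on both SOX7::GFP high arrays. *Psmb9* and *Psmb8* had log2 fold changes of -0.38 and -0.15. With *Ifit3*, these were the genes that were higher in SOX7::GFP low replicate 1 than in SOX7::GFP low replicate 2.

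**Figure D3:**
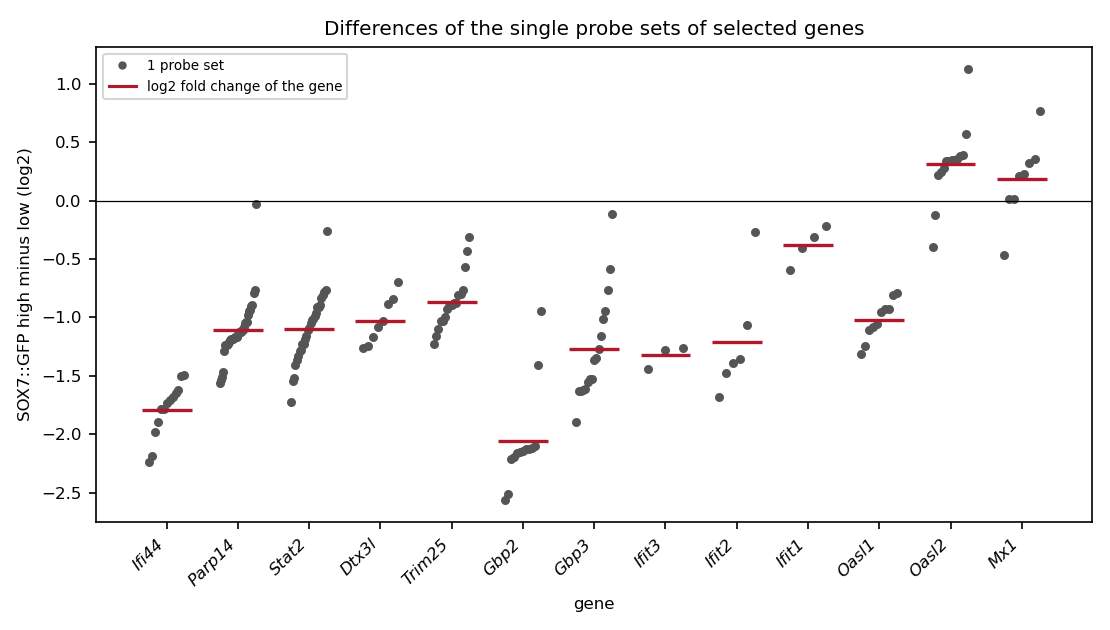
Difference between the mean of the SOX7::GFP high and of the SOX7::GFP low arrays (y axis, log2) for every kept probe set (points) of 13 genes (x axis), with the log2 fold change of the gene as a red line. All probe sets of *Ifi44* lie between -2.24 and -1.49, while those of *Mx1* lie on both sides of 0.

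The arrays of one group also differed for these genes, mostly in one direction. SOX7::GFP high replicate 1 was below replicate 2 for 33 of the 37 genes, against 50.4% of all genes, with a median gap of -0.40 against -0.0027. SOX7::GFP low replicate 1 was below replicate 2 also for 33 of the 37, against 36.2% of all genes, with a median gap of -0.22 against 0.09. Both held for 29 of the 37 genes, against 19.1% of all genes. SOX7::GFP high replicate 1 was the lowest of the 4 arrays for 32 genes, against 20.8% of all genes, and SOX7::GFP low replicate 2 the highest for 30, against 16.0%. The distance between the group means was wider than both gaps within groups for 19 of the 37 genes, and not for the other 18. The standard deviation was larger in SOX7::GFP high than in SOX7::GFP low cells for 28 of the 37 genes, against 49.0% of all genes. In the fits of 3 arrays the log2 fold change kept below 0 for 29 genes whichever array was missing, above 0 for *Oasl2*, and changed sign for the other 7. For this count and for the comparison of group distance with the gaps within groups, the share over all genes was not computed. The median over the 37 genes was -0.28 without SOX7::GFP high replicate 1 and -0.83 without SOX7::GFP high replicate 2. Whether the replicate numbers mark a shared culture or day is not given in the sources used here.

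**Figure D4:**
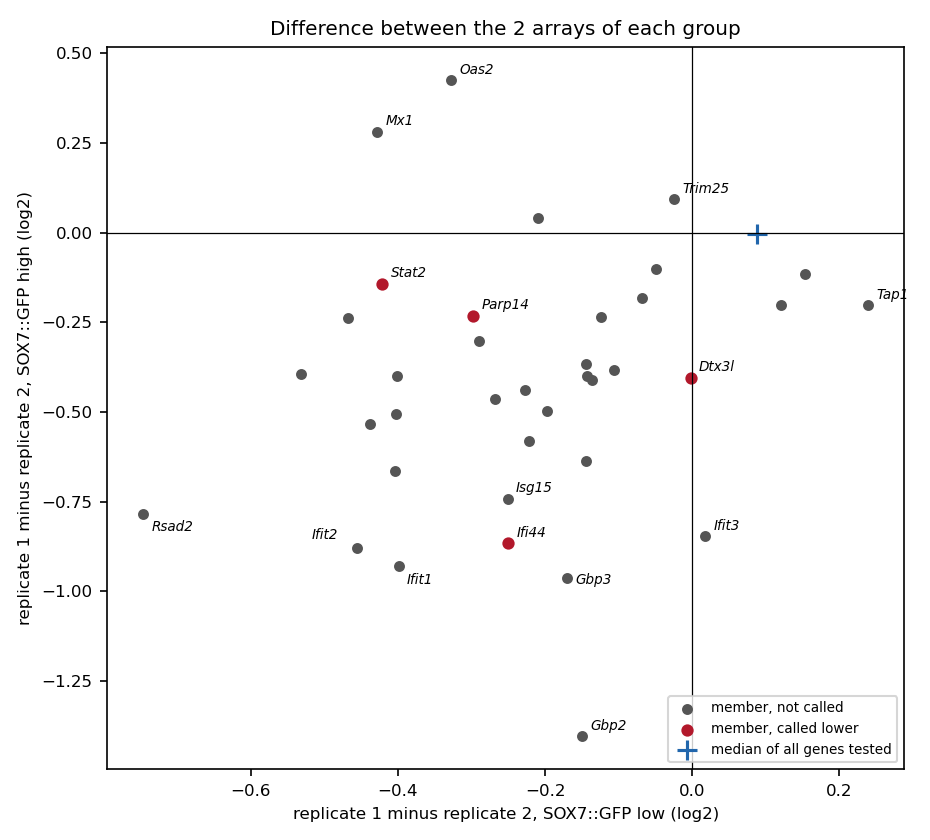
Replicate 1 minus replicate 2 in SOX7::GFP low cells (x axis, log2) and in SOX7::GFP high cells (y axis, log2) for each of the 37 measured genes, with the 4 called genes in red and the median of all 18762 genes as a blue cross. For 29 genes the point lies in the lower left field, where replicate 1 is below replicate 2 in both groups, with *Rsad2*, *Ifit1* and *Ifit2* far from 0 on both axes.

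Among other genes of the pathway, receptors and signal transducers were counted first. Of 15 measured genes 2 were lower and 0 higher in SOX7::GFP high cells. These calls come from the same fit over all genes, of which 3.24% were called lower and 3.61% higher. *Ifnar1*, which encodes a chain of the type I interferon receptor, was at 7.28 and 7.05 against 8.87 and 8.66, 3.03-fold lower (log2 fold change -1.60, SE 0.17, limma adjusted p = 0.0108). *Ifngr2*, which encodes a chain of the interferon-gamma receptor, was at 8.44 and 7.94 against 9.52 and 9.21 (log2 fold change -1.18, limma adjusted p = 0.0491). For both genes replicate 1 was the higher array in each group, unlike most of the effector genes. The count of called genes was 0 or 1 with any 1 array left out. Of the interferon genes themselves 4 of 10 had a probe set over the filter and none was called. The largest differences were those of *Ifnl3* (0.65, limma adjusted p = 0.322) and *Ifna1* (0.56, limma adjusted p = 0.373), each from 1 probe set with values of 5.40 to 6.70, near the filter.

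Genes of the nucleic acid sensing pathway upstream of interferon were lower in 5 of 17 cases, against 3.24% of all genes. They were higher in none, against 3.61%. The list holds adaptors, kinases and transcription factors as well as sensors. *Tlr7*, an endosomal receptor gene for RNA, was at 6.73 and 4.62 against 9.22 and 9.23 (log2 fold change -3.55, limma adjusted p = 0.0493), with SOX7::GFP high replicate 2 under the filter value. *Irf8*, a transcription factor gene of lymphoid and myeloid cells, had a log2 fold change of -2.98 (limma adjusted p = 0.00409), and *Unc93b1*, whose product carries such receptors to the endosome, -2.19 (limma adjusted p = 0.00771). *Tlr9*, a receptor gene for DNA, had a log2 fold change of -1.42 (limma adjusted p = 0.0341), and the fifth was the transcription factor gene *Irf5* (-1.20). The count was 2 or 3 with any 1 array left out.

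Of 45 measured further interferon-stimulated genes 5 were lower, against 3.24% of all genes, and 1 was higher, against 3.61%. *Slfn2*, a schlafen gene known for its part in lymphocyte quiescence, was at 9.09 and 9.02 against 10.75 and 11.04 (log2 fold change -1.84, limma adjusted p = 0.00771). *Tor3a*, a torsin family gene, had a log2 fold change of -1.77 (limma adjusted p = 0.0301), *Nlrc5*, the transactivator of MHC class I genes, -1.30 (limma adjusted p = 0.0139), and the other two were *Gbp5* (-1.27) and *Znfx1* (-1.08). *Ifi30*, a lysosomal thiol reductase gene of antigen-presenting cells, was the gene higher, at 8.05 and 8.79 against 6.14 and 6.22 (log2 fold change 2.24, SE 0.27, limma adjusted p = 0.0154). The median of the 45 genes was -0.41 and 35 had a log2 fold change below 0, against 0.05 and 44.5% over all genes. As for the effector genes, replicate 1 was below replicate 2 in both groups for 29 of the 45, against 19.1% of all genes. The count of called genes was 1 or 2 with any 1 array left out.

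Cell type markers moved with the comparison, and their counts of called genes too stand against 3.24% lower and 3.61% higher over all genes. All 8 B lineage markers were lower in SOX7::GFP high cells, with a mean log2 value over the list of 5.74 and 7.20 against 10.99 and 10.91. Their SOX7::GFP high values also had replicate 1 as the lower array, as most of the effector genes did, whereas in SOX7::GFP low cells replicate 1 was marginally the higher one. Of 7 neutrophil markers 4 were lower, with means of 8.34 and 7.61 against 10.88 and 11.26. *Ltf*, a secondary granule gene, was under the filter value on both SOX7::GFP high arrays. The log2 fold change was below 0 for 6 of the 7, while *Mpo* was bright in both groups, with 0.33 (limma adjusted p = 0.574). Of 8 markers of monocytes, macrophages and conventional dendritic cells 2 were lower, with means of 6.14 and 5.49 against 6.67 and 5.94. *Ly86* among the 2 was under the filter value on both SOX7::GFP high arrays. The list was mixed, with log2 fold changes below 0 for 6 of the 8. *Itgax* was at 7.46 and 6.27 against 5.14 and 4.34, a log2 fold change of 2.12 that was not called (limma adjusted p = 0.0691). *Cd68* had 0.04. The 8 plasmacytoid dendritic cell markers had means of 7.11 and 7.09 on the SOX7::GFP high arrays, between those of the SOX7::GFP low arrays (the higher being 7.22), and none was called. Of 6 T and natural killer cell markers 1 was lower, with means of 5.88 and 6.08 against 6.27 and 6.25. Mast cell and basophil markers were higher in 4 of 8 cases (8.85 and 8.06 against 6.65 and 6.51) and megakaryocyte markers in 5 of 7 (7.54 and 7.99 against 5.69 and 5.90). *Ppbp* among the 5 was under the filter value on both SOX7::GFP low arrays, at 5.02 and 4.93. The 7 erythroid markers had means of 6.42 and 7.30 against 5.31 and 7.39, with replicate 1 below replicate 2 for every one of them in both groups and none called. The 7 OP9 stroma markers had means of 6.95 and 6.77 against 6.88 and 6.33, and none was called. The part of any of these cell types in the differences of the interferon-stimulated genes was not tested.

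**Figure D5:**
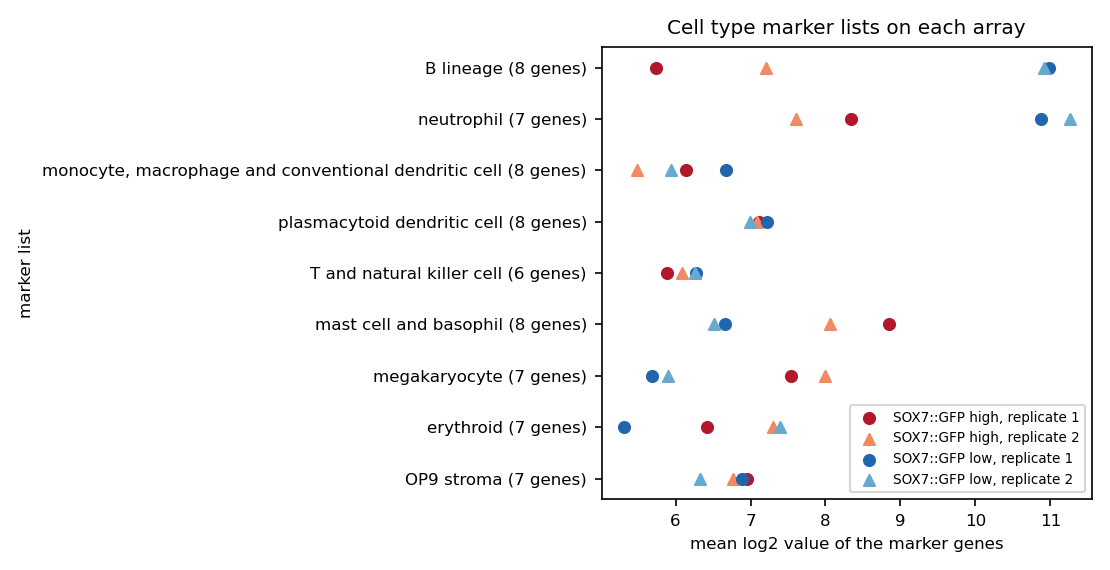
Mean log2 value (x axis) of the measured genes of 9 cell type marker lists (y axis) on each of the 4 arrays, with red and orange points for SOX7::GFP high replicates 1 and 2 and blue points for SOX7::GFP low replicates 1 and 2. B lineage markers lie between 5.74 and 7.20 on the SOX7::GFP high arrays and at 10.91 and 10.99 on the SOX7::GFP low arrays, and the erythroid list is set apart by replicate number.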

How the data were processed

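RNA was hybridized to Affymetrix mouse exon arrays, 2 for SOX7::GFP high cells and 2 for SOX7::GFP low cells, as the SOX7 level of the sample labels gives them. For 1236087 probe sets log2 values were deposited, made by the authors with the robust multi-array average algorithm (RMA, whose version is not given in the sources used here). Their filter on detection scores is not part of that table, and no background value comes with it. With 2 arrays per group, array number limits the precision. Array medians were 3.90 to 3.91.

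Probe sets with 1 gene symbol in the platform annotation (321091) were used, and older names were replaced by the current symbol where the RefSeq table of GRCm38.p6 lists them for 1 gene alone. Those with several symbols (7796) or none (907200) were left out. Probe sets whose second-highest array value was 5.04 or more were kept, values were averaged per gene, and 18762 genes were fitted with limma 3.58.1 in R 4.3.3, without covariates, since the study describes no fit for its arrays. The fits were tested on simulated data. Calls needed a Benjamini-Hochberg adjusted p below 0.05 and a 2-fold difference or more. Called genes, and the gene with the largest difference of each role group without one, are given in full, with up to 4 called genes of each pathway list, or the 2 with the largest differences where none was called. Other genes were named after their values were seen. The 38 genes, the pathway and marker lists and the tests were chosen with earlier results of these data known. Some genes of the pathway are not analysed here, and protein sequences were not used.

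Alternatives were no filter, a filter stricter by 1 log2 unit, the median of probe sets, at least 3 probe sets per gene, centring on reference genes, a further quantile normalization, limma with a trend and robust fit, the t-test that the methods name without saying for which data, the replicate number as a block, fits without each of the arrays, no minimum fold and, added after the data were seen, *Herc6* under its older name.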

Additional observations from a re-analysis of the deposited data

How the results depend on the processing

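The count of effector genes called lower, 4 in the fit reported, was 1 with the median of probe sets (*Parp14*), against 3% of all genes, 8 with at least 3 probe sets per gene, against 4.17%, 8 with limma's trend and robust fit, against 3.49%, and 0 to 3 with 1 array left out, against 0.885% to 1.67%. The methods' t-test called 0 of these genes and 0 of all 18762 genes after adjustment, so that its counts of 0, here and for the pathway lists, say nothing about a list. It was 4 or 5 with the other filters, normalizations and threshold and with *Herc6* under its older name, and the count called higher was 0 in all of these fits. The median log2 fold change was -0.83 to -0.28 without 1 array. Among receptors and signal transducers, where 2 genes were called, the count was 1 with the median of probe sets, 1 with centring on reference genes, 0 with the methods' t-test and 0 to 1 with 1 array left out. Among genes of the nucleic acid sensing pathway, where 5 were called, it was 0 with the methods' t-test and 2 to 3 with 1 array left out. Among the further interferon-stimulated genes, where 6 were called, it was 0 and 1 to 2 in the same fits. The cause of the other changes was not tested, but leaving out an array leaves 3 arrays, and a minimum of 3 probe sets leaves 14492 genes in the adjustment. In the fits without 1 array log2 fold changes lay at -0.39 to 0.14 for *Ifih1*, -0.42 to 0.0081 for *Oas2*, -0.845 to 0.083 for *Ifit1*, -0.032 to 0.40 for *Mx1*, -0.57 to 0.22 for *Rsad2*, -0.30 to 0.078 for *Bst2* and -0.37 to 0.026 for *Ifi35*. No gene changed direction under any other alternative. With the replicate number as a block limma called 6 of the effector genes lower, against 3.42% of all genes: *Dtx3l* lost its call (limma adjusted p = 0.0531) while *Gbp2* (0.0484), *Ifit2* (0.0388) and *Oasl1* (0.0454) gained one. The numbers do not establish a pairing, as the deviations of same-numbered arrays correlated at 0.104 over all genes and no source says what the numbers mark.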
